A study of Mus musculus with 30 samples.

Results

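Ighd1-1, also known as DFL16.1, is the D segment of the mouse immunoglobulin heavy chain locus that lies next to IGCR1, the regulatory region between the V and D segments. Joins of Ighd1-1 to JH4 were taken from 30 libraries of HTGTS-V(D)J-seq, in which a primer at JH4 (the bait) is extended across the junction into whatever segment was joined to it (the prey). A junction was counted as an Ighd1-1 join where the prey mapped to chromosome 12 within 100 bp of the coding segment. There were 689065 Ighd1-1 joins among 2074993 junctions and 1356677 D joins. Bone marrow pro-B cells gave 80452 Ighd1-1 joins of 1139295 junctions, and a v-Abl transformed pro-B line gave 608613 of 935698.

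V(D)J recombination builds the heavy chain gene in developing B cells: the RAG1/RAG2 endonuclease first joins a D to a JH segment, usually by deleting the DNA between them, and then joins a V segment to that DJ. Each D carries a recombination signal (a heptamer, a spacer and a nonamer) on both sides, so it could in principle join by deletion or by inversion, and terminal transferase can add bases at the ends before they are sealed. IGCR1 contains CBE1 and CBE2, sites bound by the protein CTCF, which hold back loop extrusion by cohesin from the D and JH segments into the V segments. WAPL releases cohesin from chromatin, and the 3′Igh CBEs are a cluster of CTCF sites at the far end of the locus.

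The coding segment and its flanks are shown because the junctions described here keep or lose particular bases of them. All are read on the coding strand of the mm9 build, which is the minus strand of chromosome 12, and capitals in the second line mark the nonamer and heptamer on the 5′ side and the heptamer and nonamer on the 3′ side, each pair 12 bases apart. The 3′ pair is the one used in deletional joining to JH4.
Ighd1-1 coding segment, chr12:114720381-114720403: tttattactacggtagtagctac
Ighd1-1 with both signals, chr12:114720353-114720431: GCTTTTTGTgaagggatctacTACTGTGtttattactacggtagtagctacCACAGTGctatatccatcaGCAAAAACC
JH4 coding segment, chr12:114666725-114666778: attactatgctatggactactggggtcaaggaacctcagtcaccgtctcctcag
Bone marrow reads had been aligned to a target with the 129 heavy chain locus. There Ighd1-1 lay at 114734544 to 114734566, and the 23 bases read from the bone marrow libraries were the same as those of mm9. A second D of the same type, 15.186 kb nearer to JH, was present only in the 129 target. Its 17 bases, read from the bone marrow reads, end on the same 5 bases as Ighd1-1 and share a run of 10 bases with it, and with the 80 bases before the segment the identity was 88.0%.
Ighd1-1-like D of the 129 target: ttcattactacggctac
2 other D segments serve below as points of comparison. Ighd4-1 is the D nearest to JH, and Ighd2-3 is the nearest neighbour of Ighd1-1 on its JH side that held at least 1% of D joins.
Ighd4-1 coding segment, chr12:114668739-114668749: ctaactgggac
Ighd2-3 coding segment, chr12:114713611-114713627: tctatgatggttactac

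The bone marrow cells were pro-B cells of 129SV mice sorted as B220+ IgM- CD43+, with 6 genotypes of 3 libraries each: CBE1&2-/- (library name CBE12mut), CBE1-/- (CBE1mut), CBE1inv/inv (CBE1inv), CBE2-/- (CBE2mut), CBE2inv/inv (CBE2inv) and WT. The v-Abl cells were a C57BL/6 line that is RAG1-/-, carries Emu-Bcl2, a WAPL degron and a single Igh allele, and was given RAG1/2 by retrovirus. It was used as such (called WT in its library names) or with the 3′Igh CBEs deleted (3CBEdel). Each line was either kept in 3 µM STI-571, an Abl kinase inhibitor that arrests the cells in G1, for 4 days (untreated) or given STI-571 alone for 1 day and then 150 µM IAA (an auxin) and 2 µg/mL doxycycline with STI-571 for 3 days (DoxIAA), with 3 libraries in each of the 4 groups. WAPL protein was not measured in these files.

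Each CBE12mut library held 70611 to 97033 junctions, each CBE1mut library 72658 to 77755 and each CBE1inv library 84797 to 98682. CBE2mut libraries were smaller, at 11105 to 41433, as were those of CBE2inv, at 15877 to 37480, and WT bone marrow libraries held 57970 to 89905. In v-Abl cells they held 21856 to 31275 in WT DoxIAA, 139267 to 175957 in WT untreated, 13180 to 22105 in 3CBEdel DoxIAA and 82947 to 131524 in 3CBEdel untreated. Libraries of CBE2mut and CBE2inv were sequenced in a run that held no WT library, so genotype and run cannot be told apart wherever they are set against WT or against the genotypes of the other run. Nothing in the labels says that replicates came from separate mice or cultures, so p-values measure only the spread between these libraries. A count of joins from a pool of cells cannot tell fewer cells with a join from fewer reads per cell.

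Ighd1-1 joins were lower than WT in all 5 mutant genotypes, with the lowest level in cells that lack both elements. CBE12mut libraries had 277, 268 and 391 Ighd1-1 joins per 100000 junctions, against 12770, 14252 and 15117 in WT. All 3 CBE12mut libraries lay far below the lowest WT library. Those CBE12mut values rest on 205, 189 and 379 joins. The log2 change was −5.48 (SE 0.19, limma voom adjusted p = 1.91e-27), in a comparison that called 91.4% of the 162 V and D segments tested and had a median of −2.04 over all of them.

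With 1 element lost or turned, Ighd1-1 kept more of its level. CBE1mut libraries had 5980, 5755 and 5697 per 100000, and CBE1inv libraries had 9407, 9107 and 8691. CBE2mut libraries had 5232, 7114 and 6707, and CBE2inv libraries had 5964, 4397 and 4711. No library of these 4 genotypes reached the lowest WT library, at 12770. The log2 change against WT was −1.27 (SE 0.08, limma voom adjusted p = 3.31e-17) in CBE1mut, where 63.6% of segments were called, and −0.63 (SE 0.07, limma voom adjusted p = 2.39e-09) in CBE1inv, where 9.88% were called. It was −1.18 (SE 0.11, limma voom adjusted p = 5.63e-12) in CBE2mut, with 12.3% called, and −1.50 (SE 0.12, limma voom adjusted p = 5.97e-14) in CBE2inv, with 4.94% called. Scaled by median-of-ratios size factors, which set the typical V or D segment to no change, the CBE1mut value was −0.27 (limma voom adjusted p = 0.698, 4.32% of segments called) and that of CBE1inv −0.44 (limma voom adjusted p = 0.454, 3.7% called). CBE12mut (−3.55, 13% called), CBE2mut (−0.80, 7.41% called) and CBE2inv (−1.56, 1.85% called) passed under that scaling too.

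Between mutants, CBE12mut fell below CBE1mut by 4.21 (log2; limma voom adjusted p = 3.34e-22, 57.4% called) and below CBE2mut by 4.31 (log2; limma voom adjusted p = 6.97e-22, 69.1% called). CBE1inv was above CBE1mut by 0.64 (limma voom adjusted p = 2.01e-08, 46.3% called), but at −0.18 (adjusted p = 0.846, 4.32% called) under median-of-ratios scaling. The median of all segments was 0.80 before that scaling. CBE2inv over CBE2mut, which share a run, came to −0.32 (95% interval −0.61 to −0.04, limma voom adjusted p = 0.219, 3.7% called). Without CBE2mut replicate 1 that value was −0.46 and passed the test.

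The share of V among V and D joins differed between genotypes as well, at 86.7% ± 1.75 for CBE12mut, 72.6% ± 0.955 for CBE1mut, 47.1% ± 1.43 in CBE1inv, 46.0% ± 7.95 in CBE2mut, 44.7% ± 4.92 in CBE2inv and 34.3% ± 3.38 in WT (SD, n = 3 each). CBE2inv had a lower V share than CBE1mut and also a lower mean Ighd1-1 level, at 5024 against 5811 per 100000. Their levels overlapped, with CBE2inv replicate 1 at 5964 and CBE1mut at 5697 to 5980. The libraries of this pair came from separate sequencing runs, so run may also enter the difference. An allele read as a V join is not counted as a D join, whatever D it holds. The part of this share in the level of Ighd1-1 was not tested, and the following comparisons therefore set Ighd1-1 against other D segments only.

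**Figure D1:**
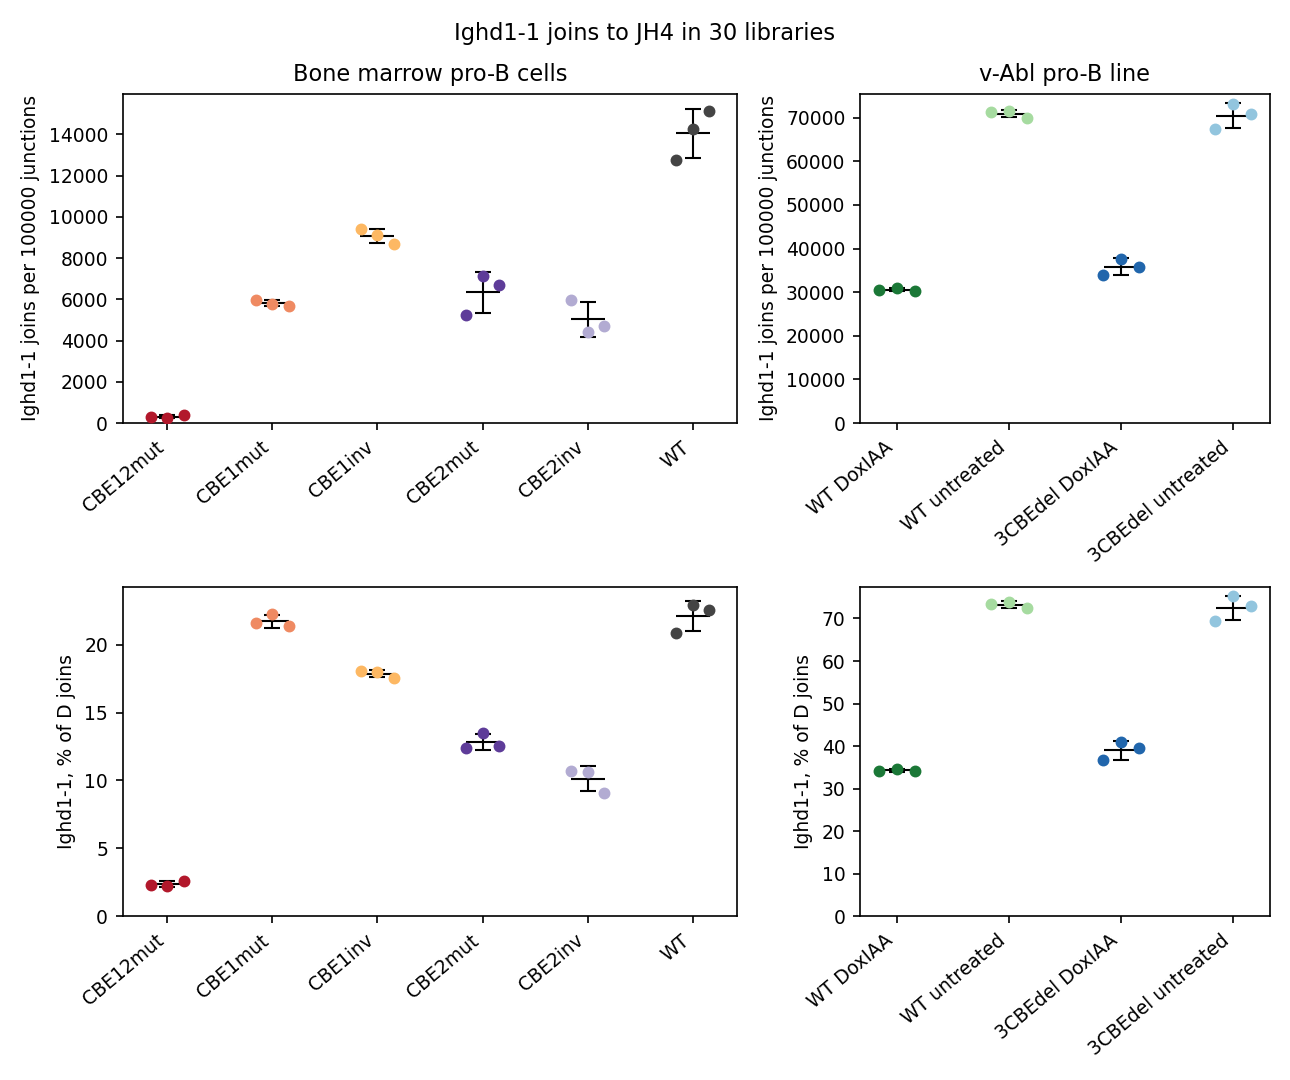
Ighd1-1 joins per library. The vertical axes give joins per 100000 junctions and the percentage of D joins. Each point is 1 library and the bars are the group mean and SD. The 3 CBE12mut libraries sit between 268 and 391 per 100000, and the CBE1mut libraries overlap WT in the share of D joins but not in the level.

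Among D joins, Ighd1-1 took 2.30%, 2.24% and 2.62% in CBE12mut, against 20.8%, 22.9% and 22.6% in WT. The CBE1mut libraries, at 21.6%, 22.3% and 21.4%, lay within the WT range, although their level was lower. The log2 change among D joins was −3.19 (SE 0.16, limma voom adjusted p = 8.99e-26) in CBE12mut, where 80% of 25 D segments were called, and −0.02 (95% interval −0.15 to 0.11, limma voom adjusted p = 0.723) in CBE1mut, where 44% were called. Without WT replicate 2 the CBE1mut value was 0.0037.

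The other 3 genotypes lay between those extremes. CBE1inv libraries were at 18.1%, 17.96% and 17.5%, CBE2mut at 12.4%, 13.5% and 12.6% and CBE2inv at 10.7%, 10.6% and 9.10%. Every library of these genotypes was below the lowest WT library. Against WT the change was −0.31 (SE 0.06, limma voom adjusted p = 0.00036, 36% called) in CBE1inv, −0.81 (SE 0.07, limma voom adjusted p = 1.88e-14, 16% called) in CBE2mut and −1.09 (SE 0.08, limma voom adjusted p = 6.79e-19, 20% called) in CBE2inv. CBE1inv was also below CBE1mut (−0.28, limma voom adjusted p = 0.00031, 36% called), the opposite direction to the unscaled level. CBE2inv was also below CBE2mut (−0.29, limma voom adjusted p = 0.0284, 4% called), and that call was lost in 5 of the 6 fits that left out 1 library of these groups, where the value stayed between −0.31 and −0.24.

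**Figure D2:**
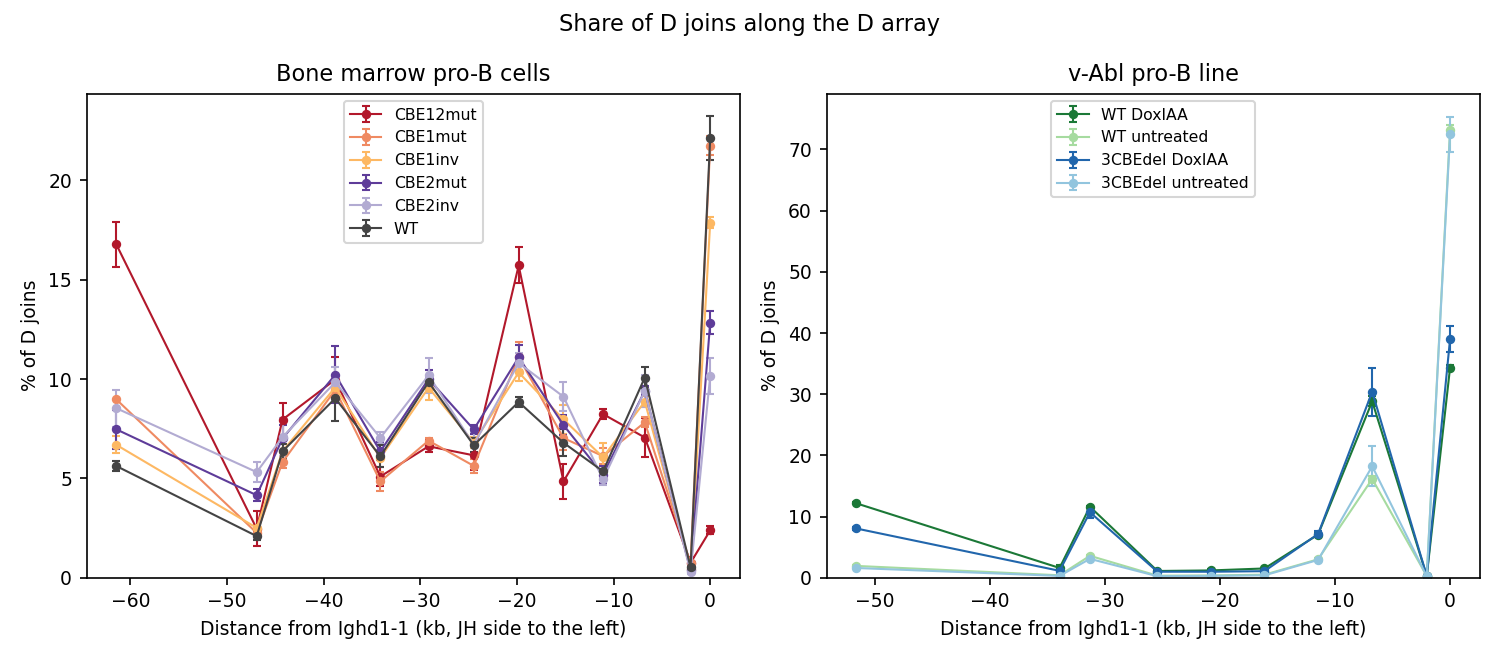
The D array by distance from Ighd1-1. The horizontal axis gives kb from Ighd1-1, with JH on the left, and the vertical axis the percentage of D joins, as the mean of 3 libraries with SD. At 0 kb Ighd1-1 stands at 2.38% in CBE12mut against 22.1% in WT bone marrow, and at 34.3% in DoxIAA against 73.2% in untreated WT v-Abl cells.

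At the other end of the array the share was higher in the mutants. Ighd4-1 held 16.8% of D joins in CBE12mut against 5.62% in WT, a log2 change of 1.58 (limma voom adjusted p = 2.9e-27). It also rose in share in CBE1mut (0.67, limma voom adjusted p = 3.12e-11), CBE1inv (0.25, adjusted p = 0.00979), CBE2mut (0.46, adjusted p = 3.14e-05) and CBE2inv (0.55, adjusted p = 1.74e-07). Per 100000 junctions, however, Ighd4-1 was lower in CBE12mut than in WT (−0.71, limma voom adjusted p = 1.23e-06). Of all 24 other D segments tested, 15 rose in share and 4 fell in CBE12mut, with a median of 1.53, and 7 rose and 4 fell in CBE1mut. Per 100000 junctions most of those that changed were lower: 3 of the 24 rose and 12 fell in CBE12mut, with a median of −0.78, and 1 rose and 12 fell in CBE1mut, with a median of −0.83.

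The Ighd2 segments, 8 genes of 1 family that fill most of the array, did not follow a single direction. The medians given here count each segment alike, whether rare or frequent. In CBE12mut 3 of the Ighd2 segments rose in share, 3 fell and 2 did not pass, with a median of 0.02 against 1.53 over all 24. Their summed share of D joins was 66.8% ± 2.14 for CBE12mut libraries, 57.7% ± 0.982 in CBE1mut, 63.6% ± 1.51 in CBE1inv, 66.7% ± 1.16 in CBE2mut, 66.0% ± 0.899 in CBE2inv and 62.3% ± 1.32 in WT (SD, n = 3 each). Ighd2-3, which is 6.77 kb from Ighd1-1, held 7.06% ± 0.98 in CBE12mut against 10.1% ± 0.554 in WT (−0.60, limma voom adjusted p = 6.78e-07). That fall was smaller than the fall of Ighd1-1 beside it.

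The Ighd1-1-like D of the 129 locus gives a comparison between segments of like sequence in different places. They also differ in length, at 17 and 23 bases, and their 3′ signals were not compared. The like segment was picked by its sequence after its values had been seen. Ighd1-1 had 0.394, 0.535 and 0.578 joins for each join of the like segment in CBE12mut, against 3.46, 3.22 and 3.12 in WT. In CBE12mut the segment nearer to JH was thus the more used of the pair, and in WT the one next to IGCR1. The mean ratio was 3.11 ± 0.244 in CBE1mut, 2.25 ± 0.186 in CBE1inv, 1.67 ± 0.0944 in CBE2mut, 1.11 ± 0.0164 in CBE2inv and 3.26 ± 0.174 in WT (SD, n = 3 each). The ratio differed over the 6 genotypes (permutation test, p = 1e-05, the smallest that 100000 draws can give). Each pair with WT had an exact two-sided permutation p of 0.1, the smallest that 3 against 3 allows, except CBE1mut, whose ratio overlapped that of WT (exact p = 0.5).

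The ratio to Ighd2-3 gave the same order among most genotypes, with CBE12mut at 0.346 ± 0.0829, CBE2inv at 1.08 ± 0.0234, CBE2mut at 1.36 ± 0.0502, CBE1inv at 2.01 ± 0.0599 and WT at 2.19 ± 0.0182, and with CBE1mut above WT at 2.78 ± 0.149 (SD, n = 3 each). The ratio to Ighd4-1 was 0.142 ± 0.0107 in CBE12mut and 3.94 ± 0.348 in WT. It was 1.20 ± 0.223 in CBE2inv, 1.75 ± 0.321 in CBE2mut, 2.42 ± 0.0497 in CBE1mut and 2.68 ± 0.170 in CBE1inv (SD, n = 3 each). By this ratio CBE1mut lay below WT without overlap. Ighd4-1 was thus the more frequent of the pair in all CBE12mut libraries and the less frequent in all WT libraries.

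A completed V(D)J join holds the D between V and JH4, and there Ighd1-1 was read where a run of at least 8 bases matched 1 D segment only. Of V joins with such a readable D, Ighd1-1 was the D in 3.61%, 3.61% and 3.55% in CBE12mut, against 23.4%, 22.8% and 23.04% in WT. CBE1mut libraries were at 16.3%, 16.8% and 16.4%, CBE1inv at 15.9%, 16.5% and 16.9%, CBE2mut at 12.1%, 10.04% and 11.7% and CBE2inv at 11.97%, 10.6% and 10.6%. All 15 mutant libraries lay below all 3 WT libraries. The SD between the 6 genotype means was 6.61 percentage points (permutation test, adjusted p = 8e-05 over 8 measures), and 8.16 (adjusted p = 0.00536) over the 4 genotypes sequenced with WT. The files hold no gap over 30 bases between V and JH4, so joins with more D and added bases than that are not counted. Ighd1-1 is the longest of the D segments shown here, at 23 bases, and a longer D more easily leaves a run of 8 bases. A run that fitted more than 1 D sequence equally well was not counted. Such percentages are therefore not the use of each D over all V joins. The D was readable in 30859 of 63603, 29746 of 60392 and 39736 of 80197 V joins in CBE12mut. In WT it was readable in 16429 of 28400, 11635 of 19896 and 15416 of 26368.

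The share differed with the V segment that was joined. Ighv5-2, also known as VH81X, is the D-proximal V segment used most often in pro-B cells. Ighd1-1 was rarer in Ighv5-2 joins than in joins of all other V segments in 18 of 18 bone marrow libraries, with a mean difference of −9.11 percentage points (range −14.8 to −0.683, exact sign-flip permutation p = 7.6e-06, the smallest possible). In WT bone marrow it was the D in 11.4% ± 0.994 of Ighv5-2 joins and in 24.5% ± 0.178 of the others. Ighv5-2 made up 75.9% of the readable V joins of CBE12mut, 64.9% of those of CBE1mut, 37.8% in CBE1inv, 23.3% in CBE2mut, 13.5% in CBE2inv and 10.7% in WT.

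With both kinds of V join taken apart, a split chosen after seeing the data, CBE1mut overlapped WT in both. Ighd1-1 was the D in 12.3% ± 1.00 of Ighv5-2 joins in CBE1mut and in 11.4% ± 0.994 in WT (exact p = 0.6), and in 24.2% ± 1.05 of other V joins in CBE1mut against 24.5% ± 0.178 in WT (exact p = 0.8; SD, n = 3 each). The difference between those genotypes over all V joins was −6.60 percentage points. CBE1inv stayed below WT within each kind, at 7.64% against 11.4% in Ighv5-2 joins and at 21.8% against 24.5% in the others. CBE2mut was at 4.89% and 13.2%, CBE2inv at 5.68% and 11.9%, and CBE12mut at 3.33% and 4.39%, in the same order of V. Each of these genotypes had no overlap with WT in either kind of join (exact p = 0.1 each, the smallest that 3 against 3 allows).

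**Figure D3:**
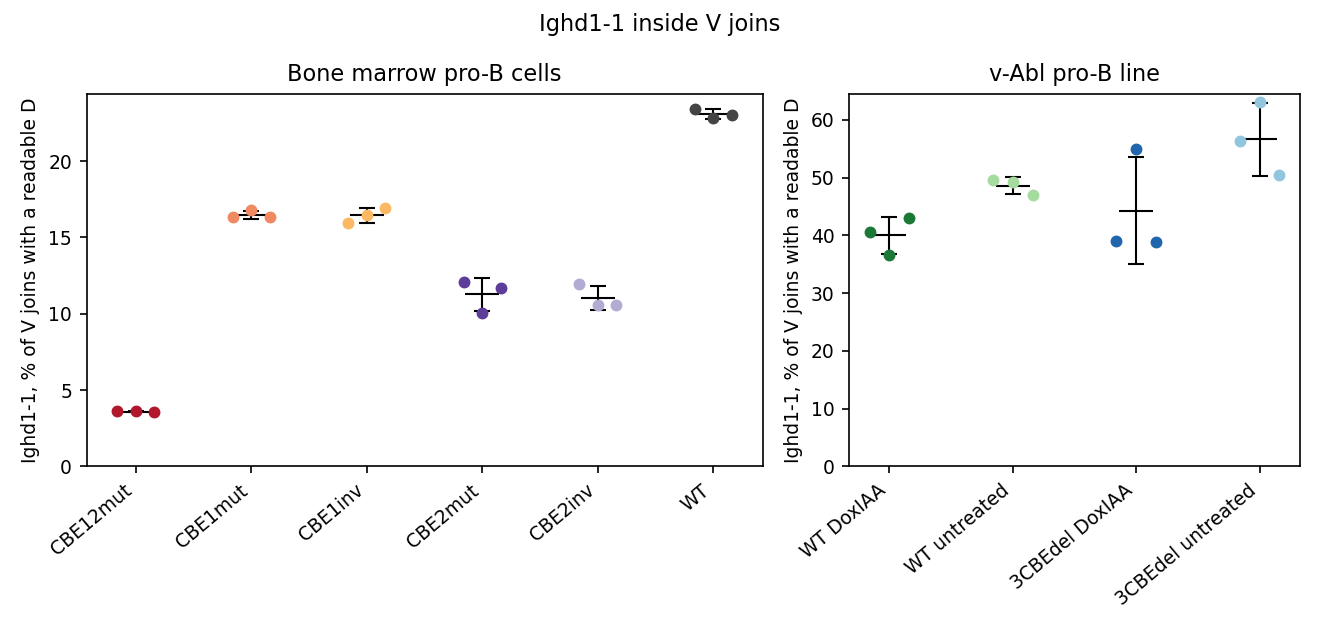
Ighd1-1 inside V joins. The vertical axes give the percentage of V joins with a readable D whose D is Ighd1-1. Each point is 1 library and the bars are the group mean and SD. The CBE12mut libraries lie between 3.55% and 3.61% and the WT libraries between 22.8% and 23.4%.

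The structure of the junctions was compared next. The gap was counted as the bases between the JH4 and the Ighd1-1 alignments, above 0 for inserted bases and below 0 for bases that could belong to either end. In deletional Ighd1-1 joins the mean gap of the mutant genotypes ran from 3.04 (CBE2inv) to 3.34 bases (CBE2mut), against 3.01 ± 0.0551 in WT (SD, n = 3), where 85.8% ± 0.42 of joins had inserted bases. The mean gap did not differ over the 6 genotypes at the threshold (permutation test, adjusted p = 0.286).

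In that family of 8 measures, 2 differed over the 6 genotypes: Ighd1-1 inside V joins, given above, and joins with shared bases. The joins with shared bases made up 11.4% ± 3.52 of joins for CBE12mut, 7.09% ± 1.06 for CBE1mut, 6.77% ± 1.49 in CBE1inv, 5.53% ± 1.26 in CBE2mut, 5.39% ± 0.248 in CBE2inv and 7.41% ± 0.105 in WT (SD, n = 3 each; permutation test over 6 genotypes, adjusted p = 0.0046). Over the 4 genotypes of the WT run the adjusted p was 0.0752 (permutation test), and without CBE12mut it was 0.25. The call was lost in 15 of the 18 tests that left out 1 library. Each CBE12mut library held 50 to 56 distinct junctions among 137 to 292 framed joins, against 1915 to 2445 among 7392 to 10946 in WT. Per 100 framed joins there were 33.5, 36.5 and 19.2 distinct junctions in CBE12mut and 22.1, 26.2 and 22.3 in WT, which overlap. That number falls as more joins are read, so groups of such unlike depth cannot be compared by it. The CBE2mut and CBE2inv libraries with the fewest framed joins, 732 and 677, had 46.9 and 40.3. The most frequent junction took 6.83%, 8.76% and 11.3% of framed joins in CBE12mut, and 1.35%, 1.30% and 1.25% in WT.

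Bases that could belong to either end were counted as kept by both, so the losses given here are the least possible. Over joins that ended inside the segment, Ighd1-1 lost a mean of 4.29 to 5.21 bases from its 3′ end in the mutant genotypes and 4.37 in WT. The whole 3′ end of the segment was kept in 7.95% ± 8.34 of joins in CBE12mut, whose SD exceeds its mean, against 19.5% ± 1.53 in WT (SD, n = 3 each). JH4 lost a mean of 4.95 to 5.45 bases in the mutants and 4.97 in WT.

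**Figure D4:**
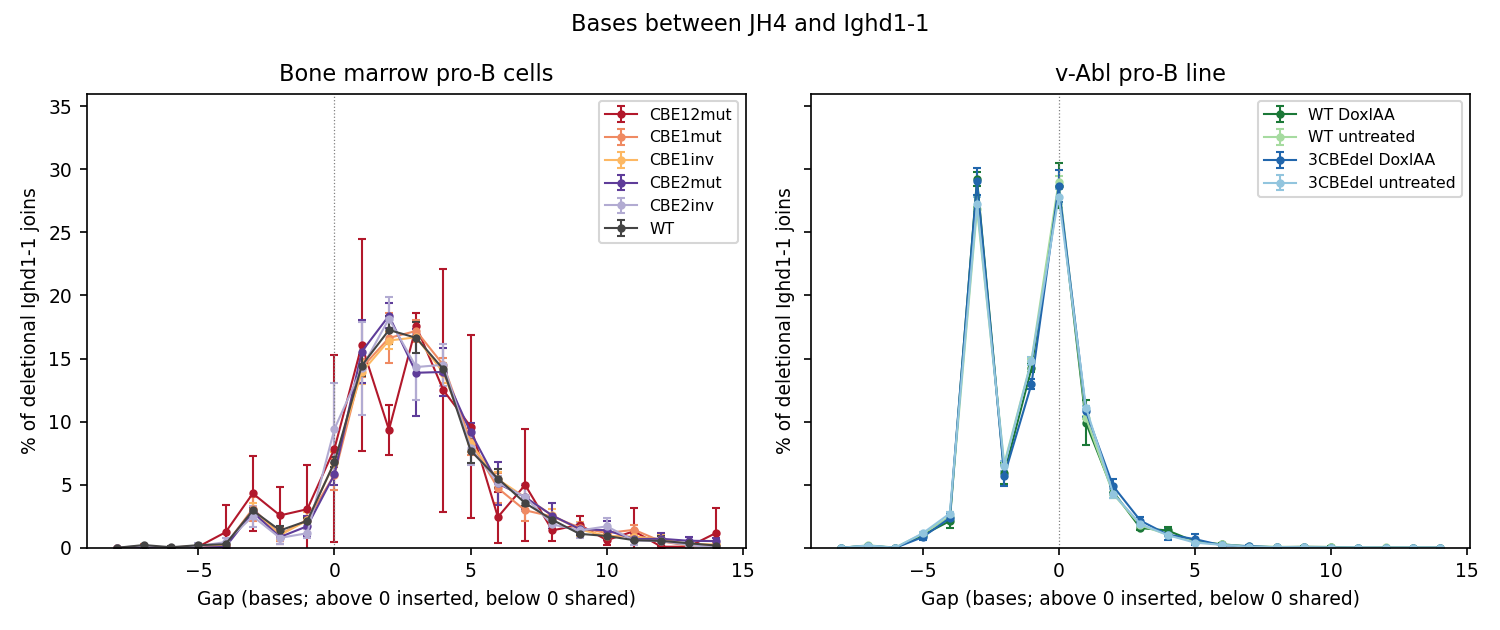
Gap between JH4 and Ighd1-1 in deletional joins. The horizontal axis gives bases, and the vertical axis the percentage of deletional Ighd1-1 joins, as the mean of 3 libraries with SD. Bone marrow groups centre above 0, with means of 3.01 to 3.34, and v-Abl groups have peaks at −3 and 0, with means near −0.9.

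In the v-Abl line Ighd1-1 ends were joined with little insertion. Joins with inserted bases made up 18.5% to 20.1% in the 4 group means, joins with shared bases 51.3% to 52.9%, and the gap of −3 alone 26.9% to 29.2%. With shared bases again counted as kept, Ighd1-1 lost 1.88 to 2.07 bases on average, and 42.3% to 44.5% of joins kept its whole 3′ end. Shared bases may have come from JH4 instead, so the loss from Ighd1-1 may be larger and the kept share smaller. The v-Abl libraries differ from those of bone marrow in cell, strain, allele and alignment target, and no test was made between both kinds.

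A few junctions made up a large part of the v-Abl joins. They are shown from the first base of Ighd1-1 into JH4, with capitals for the bases that both segments could have supplied. The losses named beside each junction count the capitals as kept by both segments. Where capitals stand, the bases lost from both segments together are therefore more than named. The first was found in 15.1% of framed joins on average (13.9% to 16.4% by library), the second in 11.97% (10.3% to 14.3%) and the third, which has no shared or added base, in 10.04% (8.08% to 11.1%), each in 12 of 12 libraries.
v-Abl junction 1, 0 bases of Ighd1-1 and 2 of JH4 lost: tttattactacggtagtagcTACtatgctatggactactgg
v-Abl junction 2, 1 base of Ighd1-1 and 4 of JH4 lost: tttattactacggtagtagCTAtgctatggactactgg
v-Abl junction 3, 0 bases of Ighd1-1 and 8 of JH4 lost: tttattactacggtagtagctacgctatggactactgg
Junctions 1 and 2 were also the most frequent in bone marrow, at 1.09% and 1.29% of framed joins, in 16 of 18 libraries each. Junction 2 took 13.9% in WT DoxIAA against 10.8% in WT untreated cells, and 12.5% in 3CBEdel DoxIAA against 10.7% in 3CBEdel untreated cells. No test was made on single junctions.

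These junctions bear on the reading frame in which Ighd1-1 is read into JH4. Frames are named by the base of Ighd1-1 at which the first codon starts, and each holds 7 whole codons. Frame 1 has 0 stop codons and 0 tyrosine codons, frame 2 has 2 stop codons, and frame 3 has 0 stop codons and 4 tyrosine codons, the kind of residue typical of heavy chain antigen-binding loops.

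In bone marrow frame 3 had the highest mean in each genotype, at 34.2% for CBE12mut libraries, 36.4% for CBE1mut, 38.5% for CBE1inv, 39.7% in CBE2mut, 37.2% in CBE2inv and 39.8% in WT. By library it took 40.4%, 38.0% and 24.3% in CBE12mut, against 38.0%, 38.9% and 42.5% in WT. The range over the other 4 genotypes was 32.9% to 42.0%, and frame 1 was above it in CBE12mut replicate 3 and CBE2inv replicate 3. Frames 1, 2 and 3 did not differ over the 6 genotypes at the threshold (permutation test, adjusted p = 0.515, 0.286 and 0.717).

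In v-Abl cells frame 3 was the main frame. It took 60.0%, 62.1% and 60.9% in WT DoxIAA, against 56.8%, 57.6% and 57.7% in WT untreated cells. In 3CBEdel it took 57.2%, 60.6% and 58.6% with DoxIAA, against 56.8%, 57.5% and 58.1% untreated. The groups did not overlap in WT and did overlap in 3CBEdel. Over both lines DoxIAA was higher by 2.47 percentage points (exact permutation within line, adjusted p = 0.04 over 8 measures), and frame 2 fell by 1.95 (exact permutation, adjusted p = 0.04). The frame 3 call was lost without 3CBEdel DoxIAA replicate 2 (2.02), 3CBEdel DoxIAA replicate 3 or 3CBEdel untreated replicate 1, and that of frame 2 in 8 of 12 such fits.

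**Figure D5:**
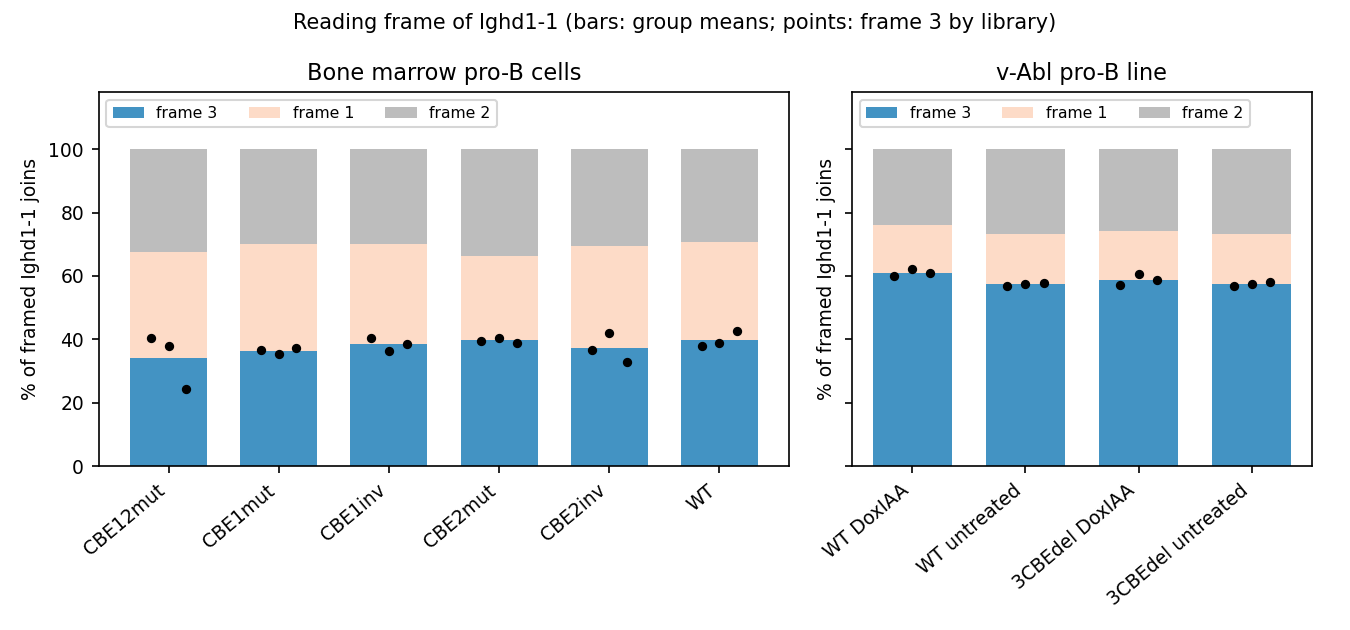
Reading frame of Ighd1-1 into JH4. The vertical axes give the percentage of framed Ighd1-1 joins. Stacked bars are the group means of the 3 frames, and points are the frame 3 values of single libraries. Bone marrow groups lie between 26.8% and 39.8% in every frame, and v-Abl groups have 57.4% to 61.0% in frame 3.

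With each distinct read counted once, the DoxIAA difference in the gap turned round and passed the test: the mean gap was −0.162 bases, joins with inserted bases −3.60 percentage points and joins with shared bases 3.37 (exact permutation, adjusted p = 0.03 each). With every read counted these were 0.021 bases, 0.353 and −0.606 points, and none passed. Distinct reads were 61.7% to 81.8% of junctions in DoxIAA libraries and 47.6% to 68.8% in untreated libraries, so the 2 treatments differ in repeated reads as well. They also differ in depth, at 13180 to 31275 junctions with DoxIAA and 82947 to 175957 untreated. Counting distinct reads also merges identical reads of separate cells, and frequent junctions are merged more in deeper libraries. The part of depth in the turned difference was not tested.

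In v-Abl cells Ighd1-1 was the main D, and DoxIAA cells held less of it. WT cells had 30454, 30906 and 30319 Ighd1-1 joins per 100000 with DoxIAA, against 71216, 71442 and 69902 untreated. 3CBEdel cells had 33938, 37709 and 35873 with DoxIAA, against 67456, 73216 and 70742 untreated. Treated and untreated libraries did not overlap in either line. The log2 change was −1.21 in WT (SE 0.04, limma voom adjusted p = 3.56e-13, 84% of 81 segments called) and −0.98 in 3CBEdel (SE 0.05, limma voom adjusted p = 2.67e-11, 77.8% called).

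Among D joins the direction was the same. Ighd1-1 took 34.3%, 34.7% and 34.0% of D joins in WT DoxIAA, against 73.5%, 73.9% and 72.4% in WT untreated cells (−1.09, SE 0.05, limma voom adjusted p = 2.05e-14, 75% of 12 D segments called). It took 36.6%, 40.9% and 39.5% in 3CBEdel DoxIAA, against 69.4%, 75.2% and 72.8% in 3CBEdel untreated cells (−0.90, SE 0.05, limma voom adjusted p = 9.54e-13, 75% called). Within sequencing runs the WT shares were 34.3% against 73.5% and 34.4% against 73.1%, and the 3CBEdel shares 38.8% against 72.3% and 39.5% against 72.8%.

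Most other D segments were higher in share with DoxIAA. Of the other 11 D segments 8 rose in share and 0 fell in each line, and all 6 Ighd2 segments rose in both. In level 8 of the 11 rose and 0 fell in each line, with median log2 changes of 1.46 in WT and 1.55 in 3CBEdel. Shares of D joins have a fixed total, so the fall of Ighd1-1 by itself raises the summed share of the others. Levels are also parts of a fixed total, most of which was Ighd1-1 in untreated cells. Such counts therefore cannot tell a gain of other D segments from the loss of Ighd1-1. The Ighd2 family held 51.4% ± 0.914 of D joins in WT DoxIAA against 24.0% ± 0.658 in WT untreated cells, and 51.4% ± 2.51 in 3CBEdel DoxIAA against 25.3% ± 2.91 in 3CBEdel untreated cells (SD, n = 3 each). Ighd4-1 held 12.2% in WT DoxIAA against 1.95% in WT untreated cells (2.65, limma voom adjusted p = 4.08e-19), and 8.07% against 1.61% in 3CBEdel (2.32, limma voom adjusted p = 1.76e-17). Ighd1-1 gave 2.82 joins for each Ighd4-1 join in WT DoxIAA against 37.7 in WT untreated cells, and 4.83 against 45.1 in 3CBEdel (exact permutation within line, p = 0.005, the smallest that 400 relabelings can give). Against Ighd2-3 the ratio was 1.19 in WT DoxIAA and 4.54 untreated, and 1.30 and 4.08 in 3CBEdel.

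V joins were a small part of the v-Abl libraries, at 8.64% ± 0.12 of V and D joins in WT DoxIAA, 1.88% ± 0.148 in WT untreated, 6.16% ± 0.842 in 3CBEdel DoxIAA and 1.79% ± 0.112 in 3CBEdel untreated cells (SD, n = 3 each). Inside them Ighd1-1 was the readable D in 40.6%, 36.6% and 42.9% in WT DoxIAA, against 49.6%, 49.2% and 46.9% in WT untreated cells. In 3CBEdel the values were 39.0%, 54.9% and 38.8% with DoxIAA, against 56.3%, 63.2% and 50.5% untreated. Replicate 2 of 3CBEdel DoxIAA lay within the untreated range, and the WT groups did not overlap. Over both lines DoxIAA minus untreated came to −10.5 percentage points (exact permutation within line, adjusted p = 0.04), a call lost without 3CBEdel DoxIAA replicate 1 or 3 or 3CBEdel untreated replicate 1 or 2, with values from −13.1 to −8.84 over the 12 fits.

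Here too Ighv5-2 joins held less Ighd1-1 than other V joins, in 12 of 12 libraries, with a mean difference of −17.7 percentage points (exact sign-flip permutation p = 0.000488, the smallest possible). The share was 19.3% against 40.7% in WT DoxIAA, 37.7% against 56.6% in WT untreated, 30.02% against 45.1% in 3CBEdel DoxIAA and 45.8% against 61.0% in 3CBEdel untreated cells, in each case Ighv5-2 first. The DoxIAA values for Ighv5-2 rest on 28 to 70 readable joins per library.

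In untreated cells, loss of the 3′Igh CBEs left the level of Ighd1-1 and its share of D joins close to the parent line. The log2 difference, 3CBEdel over WT, was −0.01 in level (95% interval −0.07 to 0.05, limma voom adjusted p = 0.889, 2.47% called) and −0.02 among D joins (95% interval −0.11 to 0.07, limma voom adjusted p = 0.791, 25% called). Without 3CBEdel untreated replicate 1 these were 0.02 and 0.02, and the second was 0.24 (limma voom adjusted p = 0.142) under median-of-ratios scaling.

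In DoxIAA cells Ighd1-1 took 39.0% ± 2.16 of D joins in 3CBEdel and 34.3% ± 0.352 in WT (SD, n = 3 each). The log2 difference was 0.18 (limma voom adjusted p = 0.0213, 16.7% called), a call lost in 5 of 6 fits that left out 1 library, with values from 0.15 to 0.22, and with sequencing run as a block (0.17, limma voom adjusted p = 0.0502). In level it was 0.23 (95% interval 0.10 to 0.35, limma voom adjusted p = 0.06, 1.23% called). The difference between both DoxIAA effects, 3CBEdel minus WT, was 0.23 in level (limma voom adjusted p = 0.156, 0% called) and 0.19 among D joins (95% interval 0.05 to 0.34, limma voom adjusted p = 0.0657, 8.33% called). Without 3CBEdel untreated replicate 2 both passed, at 0.26 and 0.22. Of the 8 measures of orientation, gap, frame and V joins, 0 differed between 3CBEdel and WT and 0 had a different DoxIAA effect (exact permutation within treatment, adjusted p of at least 0.48 and 0.24; 0 and 1 of them had an unadjusted p under 0.05).

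Nearly all Ighd1-1 joins were deletional. In bone marrow 86 of 80452 joins (0.107%) had the opposite orientation, and 77 of these lay at the edge of Ighd1-1 next to its 3′ signal, where the JH4 coding end would meet the signal end of the D. In v-Abl cells it was 585 of 608613 (0.0961%), with 555 at that edge. Joins of the opposite orientation at the 5′ coding end, the product of inversional coding joining, were thus among the remaining few. The 13 other bone marrow D segments with the most joins had 0.0728% to 1.23% in the opposite orientation.

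By library, the opposite orientation took 2.44%, 0% and 0% in CBE12mut, and 0.128%, 0.0605% and 0.0294% in WT. The first of these values is 5 joins of 205 (exact Clopper-Pearson 95% interval 0.797% to 5.60%), and the other two had 0 joins, for which the upper bound of the same interval is 1.93% and 0.969% (3 joins would be 1.59% and 0.792%). The 6 genotypes did not differ at the threshold (permutation test, adjusted p = 0.841). In v-Abl cells it took 0.316%, 0.176% and 0.399% in WT DoxIAA, against 0.0615%, 0.0905% and 0.0829% in WT untreated cells. It took 0.080%, 0.421% and 0.254% in 3CBEdel DoxIAA, against 0.114%, 0.0613% and 0.0852% in 3CBEdel untreated cells, where replicate 1 of the treated cells lay within the untreated range. Over both lines DoxIAA was higher by 0.192 percentage points (exact permutation within line, adjusted p = 0.04), and the call was lost without any 1 of the 6 untreated libraries, with values from 0.149 to 0.234 over all 12 fits. PCR reads are not independent molecules, so these intervals and limits cover counting error only.

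As a description, the segments whose levels followed those of Ighd1-1 most closely were named by Pearson's r of log2(junctions per 100000 + 1), over segments with a mean of at least 20 per 100000. Over the 18 bone marrow libraries and 143 segments they were a V at 115264678 of the 129 target, closest in sequence to Ighv5-6 (r = 0.924), the Ighd1-1-like D (r = 0.909) and Ighd2-3 (r = 0.905). Over the 12 v-Abl libraries and 78 segments they were Ighv5-2 (r = 0.868), Ighv5-4 (r = 0.829) and Ighv2-2 (r = 0.692). The libraries share groups, depth and a common total, and such values reflect all of these.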

How the data were processed

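Prey junctions from a JH4 bait were measured by HTGTS-V(D)J-seq in 18 bone marrow and 12 v-Abl libraries, grouped by the labels. Each deposited file lists 1 read per row with the prey position, strand and the bait and prey alignment ends, and these columns are neither counts nor scaled values but other per-read fields, per the file headers. The authors aligned the reads with Bowtie2 to mm9, per the submitters' processing notes, bone marrow reads to a target with the 129 locus, per the labels. Versions and filters are not given in the sources used here, and library construction left out the enzyme blocking step, per the labels' protocols.

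Rows within 100 bp of a V or D segment were summed per library. Segments came from peaks of at least 50 joins. Bone marrow segments are named by the closest mm9 segment. Segment totals (at least 10 joins in 3 libraries) were fitted with limma voom (limma 3.58.1, R 4.3.3) over all 18 or all 12 libraries, once with all junctions and once with D joins as library size, and p-values adjusted by Benjamini-Hochberg over all segments at 0.05. Shares with 1 value per library were tested by exact or 100000-draw two-sided permutation (Python 3.11.15, numpy 2.4.6), adjusted over 8 measures. The smallest p is 0.1 for 3 against 3 and 0.005 for 400 relabelings within line. On simulated data the fits called 7 of 10 bone marrow segments changed by 1 (log2), and 0 of 142 unchanged ones. The simulated spread was the same for all segments and not taken from these libraries, so those rates need not hold here. The frame was read from the last D base kept, the gap and the JH4 position, and framed joins are those where all of these could be read. The named segments were Ighd1-1, Ighd4-1, the nearest D with at least 1% of D joins and the Ighd2 segments. Members and lists were chosen with earlier results of these data known. Alternatives were other scalings, filters, windows, a distinct-read count, limma trend, replicate and run blocks, and leaving out single libraries.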

Additional observations from a re-analysis of the deposited data

Results flagged for a closer look

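The DoxIAA effect on Ighd4-1, the D nearest to JH, differed between the v-Abl lines: its share of D joins rose less in 3CBEdel than in WT, with a difference of both log2 effects of −0.33 (SE 0.09, limma voom adjusted p = 0.0168). It held 8.07% of D joins in 3CBEdel DoxIAA against 1.61% in 3CBEdel untreated cells, and 12.2% in WT DoxIAA against 1.95% in WT untreated cells. The same difference for Ighd1-1 was 0.19 and did not pass (limma voom adjusted p = 0.0657). Per 100000 junctions the Ighd4-1 difference was −0.28 (limma voom adjusted p = 0.214).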

How the results depend on the processing

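Of the comparisons made under other settings, 192 kept direction and call, 7 turned sign, 6 gained a call and 5 lost it. With 1 library left out, 412 kept both, 4 turned sign, 6 gained a call and 46 lost it. Under median-of-ratios scaling the level was −0.27 for CBE1mut over WT, −0.44 for CBE1inv over WT (neither passed) and −0.18 for CBE1inv over CBE1mut (sign turned), and the share of D joins −0.18 for CBE2inv over CBE2mut (not passed) and 0.24 for untreated 3CBEdel over WT (sign turned). Counting each distinct read once gave, for untreated 3CBEdel over WT, 0.0301 in level and 0.0143 among D joins (signs turned), 0.25 in level for DoxIAA 3CBEdel over WT (passed), and for DoxIAA minus untreated a mean gap of −0.162, inserted bases −3.60, shared bases 3.37 (all turned) and frame 1 −2.68 (passed). DoxIAA 3CBEdel over WT was 0.23 in level with limma trend (passed) and 0.17 among D joins with run as a block (not passed). Shared bases over genotypes came to 0.921 without CBE12mut, chosen after seeing the data. The cause was not tested.

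Correlations of deviations between libraries of the same replicate number ran from −0.413 to 0.297 in bone marrow and −0.262 to 0.304 in v-Abl. All 3 were above 0.1 for CBE1inv with WT (0.103 to 0.261) and CBE2mut with WT (0.175 to 0.216), and in no other pair of groups. With the replicate block no Ighd1-1 call changed in bone marrow, with CBE1inv over WT at −0.63 in level and −0.31 among D joins and CBE2mut over WT at −1.18 and −0.79. In v-Abl cells 3 values passed that had not without it: DoxIAA 3CBEdel over WT in level (0.23) and the difference of DoxIAA effects in level (0.24) and among D joins (0.20).

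Leaving out 1 library changed a call or sign in these, given as ranges: among D joins CBE1mut over WT −0.065 to 0.0037, CBE2inv over CBE2mut −0.31 to −0.24, untreated 3CBEdel over WT −0.042 to 0.015, DoxIAA 3CBEdel over WT 0.15 to 0.22, difference of DoxIAA effects 0.16 to 0.24. In level, CBE2inv over CBE2mut −0.46 to −0.19, untreated 3CBEdel over WT −0.037 to 0.023, difference of DoxIAA effects 0.19 to 0.28. Over genotypes, mean gap 0.0905 to 0.180, inserted bases 1.69 to 3.85, shared bases 1.45 to 2.67, frame 2 1.37 to 2.38. For DoxIAA, opposite orientation 0.149 to 0.234, inserted bases −0.190 to 0.669, frame 2 −2.33 to −1.56, frame 3 2.02 to 2.88, Ighd1-1 inside V joins −13.1 to −8.84. Fewer relabelings remain with 1 library left out, which raises the smallest p the permutation tests can give. Depth limits CBE12mut most, with 189 to 379 Ighd1-1 joins per library.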
